A study of Mus musculus with 9 samples.

Results

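The endothelium of the cardiac capillary is the gate through which fatty acids reach the heart muscle. The protein of Gpihbp1 carries lipoprotein lipase, the product of Lpl, to the luminal face of the capillary, where triglycerides of passing lipoproteins are split. The released fatty acids are taken up with the help of Cd36 and carried within cells by fatty acid binding proteins, Fabp4 and Fabp5 in endothelium and Fabp3 in cardiomyocytes, while Aqp7 passes the glycerol. Meox2, a homeobox factor, and Tcf15, a basic helix-loop-helix factor, form a pair that was described in mouse heart endothelium as driving fatty acid uptake, with Cd36 and Lpl among its targets. These 9 genes were chosen by name for their role in uptake, with earlier results of these data known, and all 9 of them were measured among 18820 genes with a probe set of their own. A gene with several probe sets was read from the brightest.

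The samples were right ventricles of 9 female C57BL/6 mice, 3 per group with 1 array each: MCT + NI mice 615, 617 and 619, MCT mice 640, 641 and 644, and sham mice 620, 624 and 625. MCT + NI and MCT mice received weekly subcutaneous monocrotaline (MCT), an alkaloid whose liver metabolites injure the vessels of the lung, at 600 mg/kg for 8 weeks starting at an age of 10 weeks, and sham mice received saline. MCT + NI mice ate an isocaloric diet, the nutritional intervention (NI), with more protein, leucine, fish oil and oligosaccharides, and MCT and sham mice ate the AIN-93M control diet. The fat source therefore also differed between the diets, and no sham mice on the NI diet were analysed here, so the effect of the diet by itself cannot be told apart from its effect on MCT mice. The methods state that the arrayed mice were matched for disease severity, so they are not a random draw of their groups.

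Values are log2 intensities. The array medians ran from 4.77 to 4.79, and the number of arrays limits the precision. Groups were compared with limma over all 18820 genes, with p-values adjusted by Benjamini-Hochberg, and a gene was called where this adjusted p was under 0.05. The p-values set each difference between groups against the spread of these 9 mice within their groups, moderated by limma over all genes. Markers of cardiac muscle were bright, and their mean log2 value was alike in all mice. It was 12.40 to 12.43 in MCT + NI, 12.36 to 12.39 in MCT and 12.38 to 12.40 in sham mice. Relative to sham mice, 1 of 11 such markers was called lower in MCT mice and 1 higher in MCT + NI mice. In each of these comparisons 6.26% of all genes were called. Markers of the atrium were not alike. Their mean over 8 genes was 9.35, 6.83 and 6.24 in MCT + NI mice 615, 617 and 619, 6.14, 6.48 and 10.74 in MCT mice 640, 641 and 644, and between 10.26 and 11.10 in sham mice. All 3 sham arrays, MCT mouse 644 and MCT + NI mouse 615 thus had high atrial transcripts. The other mice given MCT were low in them, so treatment and atrial level were partly confounded in each comparison with sham mice.

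The capillary uptake genes differed unevenly between MCT and sham mice. Relative to sham mice, Meox2 (1.73-fold), Fabp5 (1.58-fold) and Gpihbp1 (1.57-fold) were higher in MCT mice and Tcf15 (0.76-fold) was lower, so both genes of the transcription factor pair moved in opposite directions. Lpl, Fabp3 and Fabp4 differed by at most 0.023 in size on the log2 scale, Cd36 by -0.14 and Aqp7 by -0.46, and none of these 5 passed the adjusted test. The calls were 4 of 9, where 6.26% of all genes were called (4.65% higher and 1.61% lower), and in the same 4 genes MCT and sham mice did not overlap, as in 21.9% of all genes. The median difference was 0.0012 over the 9 genes and -0.0159 over all genes. The calls lie near the threshold: none of the 4 was called when all 35556 rows of the table were tested or when MCT and sham mice were fitted without the MCT + NI mice, although each difference kept its sign under every alternative run. Of the 17 alternatives run for each of them, Meox2 was called in 12, Tcf15 in 8 and Gpihbp1 in 7, and Fabp5, with its other probe sets added, in 6 of 19.

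**Figure D1:**
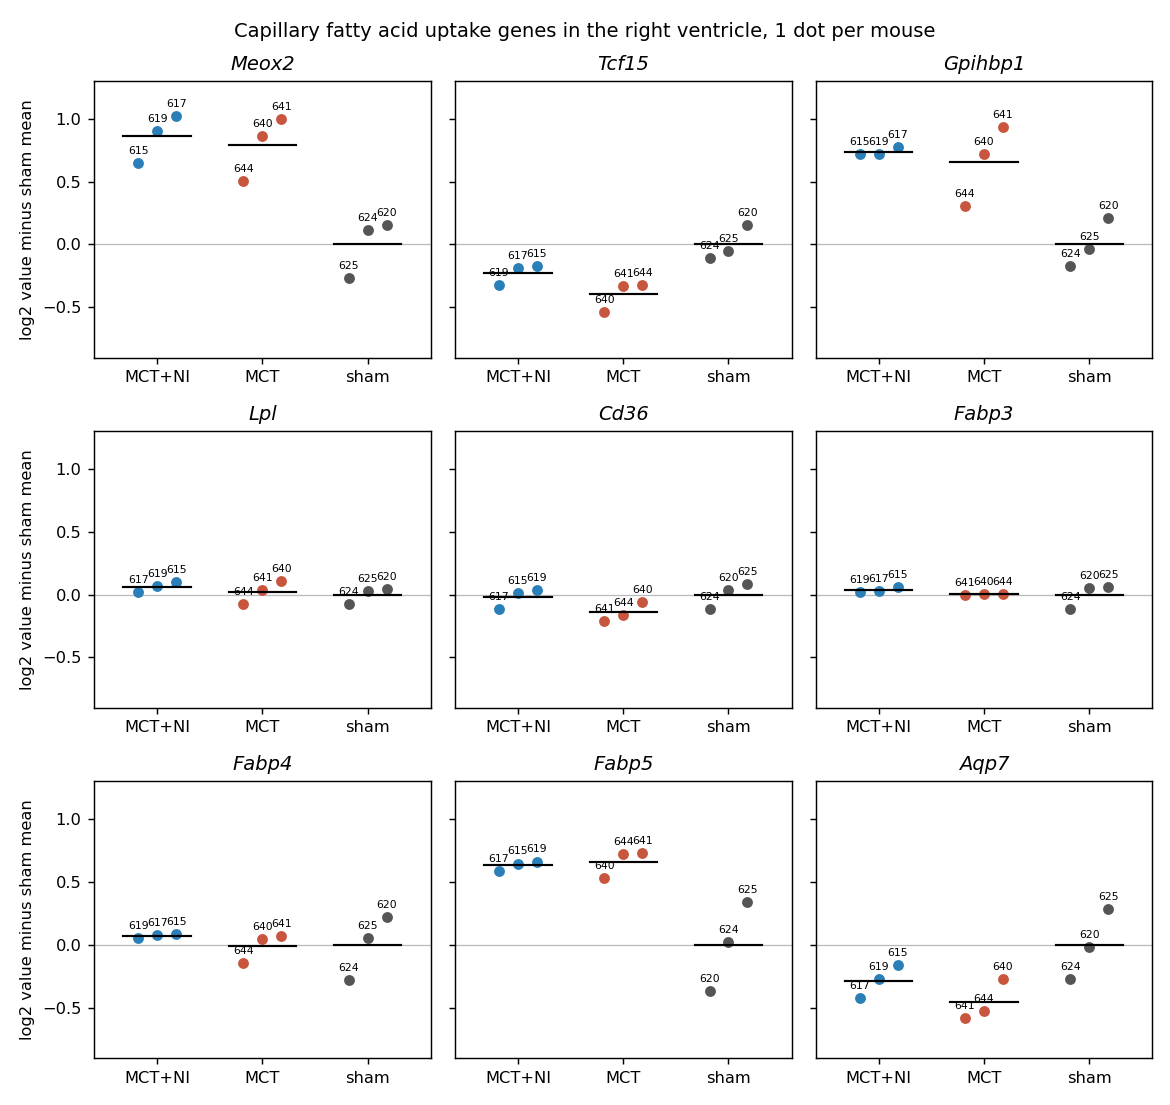
Log2 value minus the mean of the sham mice for each of the 9 genes, 1 dot per mouse with its number, in MCT + NI, MCT and sham mice from left to right, and the bar as the group mean (n = 3). Meox2, Gpihbp1 and Fabp5 lie above all sham mice in all 6 mice given MCT and Tcf15 lies below them, while Lpl, Cd36, Fabp3, Fabp4 and Aqp7 overlap with sham mice.

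The 250 bases before the annotated starts of Meox2, the member with the largest rise, and of Cd36, a described target of the pair, are shown because a basic helix-loop-helix factor such as Tcf15 binds E-boxes. They come from RefSeq (GRCm38.p6), whose table held windows for 4 of the 9 genes (Cd36, Fabp3, Meox2 and Aqp7). The Meox2 window is chr12:37108290-37108539 on the plus strand and the Cd36 window, 1 of the starts of that gene, is chr5:17835897-17836146 on the minus strand. Capitals mark the E-box letters CANNTG.
Meox2: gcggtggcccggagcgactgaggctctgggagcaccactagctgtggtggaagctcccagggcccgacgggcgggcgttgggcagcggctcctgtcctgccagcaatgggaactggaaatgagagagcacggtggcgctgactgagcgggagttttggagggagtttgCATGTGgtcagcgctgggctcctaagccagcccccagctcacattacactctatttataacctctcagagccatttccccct
Cd36: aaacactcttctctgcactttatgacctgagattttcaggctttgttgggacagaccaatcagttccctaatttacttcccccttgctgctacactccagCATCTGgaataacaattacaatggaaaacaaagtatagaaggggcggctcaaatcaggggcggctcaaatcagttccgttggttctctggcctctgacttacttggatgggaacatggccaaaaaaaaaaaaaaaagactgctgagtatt
Each of these windows held 1 match, CATGTG at bases 169 to 174 in Meox2 and CATCTG at bases 101 to 106 in Cd36. Neither held the homeobox core TAATTA on either strand. Matches are common, since 66.2% of 32851 windows of this length contain CANNTG and 4.84% contain TAATTA, and a match describes letters and not a site in use.

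Meox2, on chromosome 12 (37108540 to 37179534), was measured at 8.43, 8.80 and 8.69 in MCT + NI mice 615, 617 and 619 and at 8.64, 8.78 and 8.28 in MCT mice 640, 641 and 644. The sham mice 620, 624 and 625 had 7.94, 7.90 and 7.51. Every mouse given MCT, with or without NI, thus lay above every sham mouse, and both MCT groups overlapped. MCT exceeded sham mice by 0.79 (standard error 0.16, 95% interval 0.43 to 1.14, adjusted p = 0.019 in limma, n = 3 each). The adjusted p was 0.0795 without MCT mouse 640, 0.074 without MCT mouse 641 and 0.056 without sham mouse 625, and it stayed under 0.05 without any of the other 6. MCT mouse 644, the MCT mouse with atrial transcripts at the level of sham mice, also had the lowest Meox2 of its group. So did MCT + NI mouse 615, the MCT + NI mouse with high atrial transcripts. The part of atrial tissue in the difference was not tested.

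Tcf15, on chromosome 2 (152143056 to 152149097), had 6.46, 6.45 and 6.32 in MCT + NI mice 615, 617 and 619, 6.10, 6.30 and 6.31 in MCT mice 640, 641 and 644, and 6.79, 6.53 and 6.59 in sham mice 620, 624 and 625. All mice given MCT lay below all sham mice, and the MCT + NI mice lay just above the MCT mice. The difference between MCT and sham mice was -0.40 (standard error 0.089, 95% interval -0.60 to -0.20, adjusted p = 0.0326). It was called without sham mouse 624 (0.044), MCT + NI mouse 617 (0.0465) or MCT + NI mouse 619 (0.0443), but not without MCT mice 640 (0.112), 641 (0.0669) or 644 (0.051), sham mice 620 (0.0801) or 625 (0.0661) or MCT + NI mouse 615 (0.0528). Tcf15 was also the closest of the 9 genes to a difference between the diets at the unadjusted level (0.17, with an unadjusted p of 0.0869 and an adjusted p = 1 in limma).

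Set against each other on the same array, Meox2 minus Tcf15 lay 0.82, 1.21 and 1.23 above the sham mean in MCT + NI mice 615, 617 and 619 and 1.40, 1.33 and 0.83 above it in MCT mice 640, 641 and 644. The sham mice themselves lay at -0.0009, 0.22 and -0.22 (mice 620, 624 and 625). The mean shift was 1.09 in MCT + NI mice and 1.18 in MCT mice. Among the mice given MCT it was smallest in MCT + NI mouse 615 (0.82) and MCT mouse 644 (0.83), those with high atrial transcripts. The part of atrial tissue in the shift was not tested. That the mice given MCT do not overlap with sham mice here follows from the values of both genes given above, so the shift is a description of its size and no further support. The diets differed by -0.0992, and their mice overlapped.

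**Figure D2:**
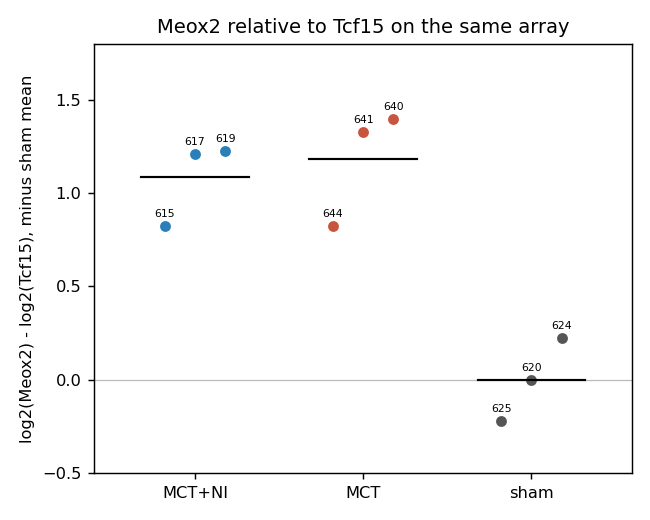
Meox2 minus Tcf15 on the same array (log2 units, the mean of the sham mice set to 0), 1 dot per mouse with its number, in MCT + NI, MCT and sham mice from left to right, with bars at the group means. The 6 mice given MCT sit between 0.82 and 1.40, above the highest sham mouse at 0.22.

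Gpihbp1, on chromosome 15 (75596630 to 75598213), the capillary anchor of lipoprotein lipase, had 8.51, 8.56 and 8.51 in MCT + NI mice 615, 617 and 619, 8.51, 8.72 and 8.09 in MCT mice 640, 641 and 644, and 7.99, 7.62 and 7.75 in sham mice 620, 624 and 625. The MCT + NI mice were close together, MCT mouse 644 was only just above sham mouse 620, and neither group overlapped with sham mice. MCT exceeded sham mice by 0.65 (standard error 0.15, 95% interval 0.31 to 0.99, adjusted p = 0.0354). It was called without MCT mouse 644 (0.0053) or sham mouse 620 (0.04). It was not called without MCT mice 640 (0.125) or 641 (0.0976), sham mice 624 (0.12) or 625 (0.0991), or MCT + NI mice 615 (0.0608), 617 (0.0528) or 619 (0.0624).

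Lpl, whose enzyme Gpihbp1 binds, stayed near its high level. It was measured at 12.44, 12.37 and 12.41 in MCT + NI mice 615, 617 and 619, 12.45, 12.38 and 12.27 in MCT mice 640, 641 and 644, and 12.39, 12.27 and 12.37 in sham mice 620, 624 and 625. The groups overlapped. The interval of the difference between MCT and sham mice, -0.0915 to 0.14 on the log2 scale, corresponds to 0.94-fold to 1.10-fold in array intensity (adjusted p = 0.854 in limma). The highest value of any probe set was 13.43, and whether differences are compressed at such bright levels was not tested. Gpihbp1 was thus higher in MCT mice, while Lpl did not pass the test. Which cells of the ventricle expressed either gene was not tested. Among 15 other genes of lipase processing and regulation, 1 was higher in MCT mice and 0 were lower, where 6.26% of all genes were called. The same share stands beside each further list compared between MCT and sham mice. The only gene called here is near that share. That gene was Hspg2, which encodes the basement membrane proteoglycan perlecan (10.40 in MCT + NI, 10.39 in MCT and 9.53 in sham mice on average, 0.85 between MCT and sham mice, adjusted p = 0.000382). Angptl4, a secreted inhibitor of the lipase, differed by 0.31 (adjusted p = 0.729), and Lmf1, which matures the lipase in the endoplasmic reticulum, by -0.027 (adjusted p = 0.787).

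Cd36, the fatty acid translocase of the cell surface, had 11.57, 11.44 and 11.60 in MCT + NI mice 615, 617 and 619, 11.51, 11.35 and 11.40 in MCT mice 640, 641 and 644, and 11.60, 11.44 and 11.64 in sham mice 620, 624 and 625. MCT mice were the lowest on average, by -0.14 against sham mice (95% interval -0.28 to 0.0032, adjusted p = 0.266), and all groups overlapped. Of 16 other receptors and transporters of lipoproteins and fatty acids, 3 were higher in MCT mice, relative to sham, and 0 lower. They were the coat genes of caveolae Cav1 (0.56, adjusted p = 0.000203) and Cavin1 (0.35, adjusted p = 0.00298), and Acsl5, an acyl-CoA synthetase (0.50, adjusted p = 0.0161). Cav1 had 10.51, 10.46 and 10.51 in MCT + NI mice 615, 617 and 619, 10.56, 10.57 and 10.43 in MCT mice 640, 641 and 644, and 10.01, 9.93 and 9.94 in sham mice 620, 624 and 625. Of the fatty acid transport proteins, Slc27a3 differed by 0.63 (adjusted p = 0.079) and Slc27a1 by -0.51 (adjusted p = 0.135), without passing.

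The binding proteins behaved differently from each other. Fabp3, the carrier of cardiomyocytes, had 12.49, 12.46 and 12.45 in MCT + NI mice 615, 617 and 619, 12.43, 12.42 and 12.43 in MCT mice 640, 641 and 644, and 12.48, 12.31 and 12.49 in sham mice 620, 624 and 625. Fabp4, a carrier of capillary endothelium and of adipocytes, had 10.27, 10.27 and 10.25 in MCT + NI, 10.24, 10.26 and 10.04 in MCT and 10.41, 9.91 and 10.25 in sham mice, in the same order of mice. Both groups of mice given MCT lay within the sham range for both genes, and the sham mice were the most scattered. The differences between MCT and sham mice were 0.0012 for Fabp3 (95% interval -0.0999 to 0.10) and -0.0084 for Fabp4 (-0.26 to 0.25), with signs that changed between alternatives.

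Fabp5 had 7.89, 7.84 and 7.91 in MCT + NI mice 615, 617 and 619, 7.78, 7.98 and 7.97 in MCT mice 640, 641 and 644, and 6.88, 7.27 and 7.59 in sham mice 620, 624 and 625. The SD was 0.038 in MCT + NI, 0.12 in MCT and 0.35 in sham mice, and no mouse given MCT overlapped with sham mice. MCT exceeded sham mice by 0.66 (standard error 0.15, adjusted p = 0.0335). The call held without sham mouse 620 (0.48, adjusted p = 0.04) or sham mouse 625 (0.83, adjusted p = 0.0076). It was lost without sham mouse 624 (0.0917), without MCT mice 640 (0.0659), 641 (0.111) or 644 (0.0944), and without MCT + NI mice 615 (0.0588), 617 (0.0501) or 619 (0.0594).

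Fabp5 was read by 3 probe sets and Fabp3 by 2, and RefSeq lists the pseudogenes Fabp5l2 and Fabp3-ps1, so signal shared with these copies is uncertain. The brightest Fabp5 probe set (10585699) is numbered past that of Lpl on chromosome 8 (10572130), although Fabp5 lies on chromosome 3. The second (10490838) is numbered between those of Tcf15 on chromosome 2 (10477069) and Fabp4 on chromosome 3 (10497265). Which locus each of them reads was not tested. The second Fabp5 probe set differed by 0.68 between MCT and sham mice (standard error 0.20) and the dimmest by 0.30 (standard error 0.14). All 3 placed every mouse given MCT above every sham mouse. In the dimmest the gap was narrow, 4.791 in MCT mouse 640 against 4.784 in sham mouse 624, and lay near the array medians. In a limma test of all rows the adjusted p was 0.078 for the brightest, 0.143 for the second and 0.372 for the dimmest. The mean of the 3 differed by 0.55 (adjusted p = 0.0635 over genes), and the other Fabp3 probe set differed by -0.0146. Among 14 other binding proteins for fatty acids, retinoids and related ligands, 0 were called in limma between MCT and sham mice, their differences ranging from -0.37 to 0.31.

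**Figure D3:**
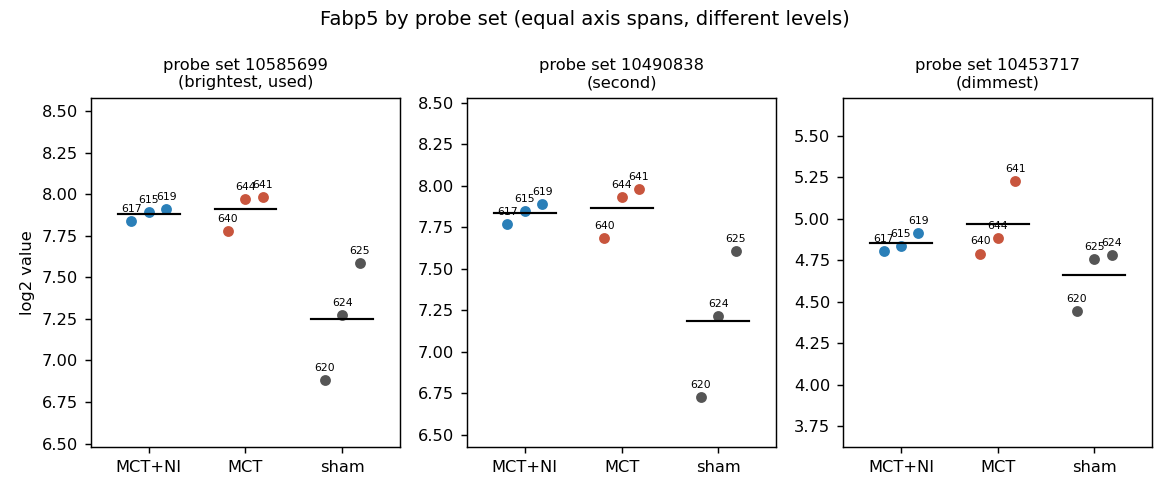
Log2 value of Fabp5 in each of its 3 probe sets, from the brightest to the dimmest, 1 dot per mouse with its number, in MCT + NI, MCT and sham mice from left to right, with bars at the group means. The panels have equal axis spans at different levels, and in each of the 3 the 6 mice given MCT lie above the sham mice, in the dimmest by a narrow gap.

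Aqp7, a glycerol channel of endothelium and adipocytes, had 8.56, 8.30 and 8.45 in MCT + NI mice 615, 617 and 619, 8.45, 8.14 and 8.20 in MCT mice 640, 641 and 644, and 8.71, 8.45 and 9.01 in sham mice 620, 624 and 625. The lowest sham mouse and the highest MCT mouse had the same value. MCT lay below sham mice by -0.46 (95% interval -0.78 to -0.14, unadjusted p = 0.00954, adjusted p = 0.0988). It passed only without sham mouse 624 (-0.60, adjusted p = 0.0438). Of 6 other aquaporins and genes of glycerol use, Aqp1, the water channel of capillary endothelium, was lower: 7.99, 7.43 and 7.55 in MCT + NI, 7.80, 7.17 and 7.99 in MCT and 9.44, 9.51 and 8.78 in sham mice, in the same order of mice (-1.59, adjusted p = 0.00735). Aqp3, Aqp9, Gpd1, Gpd1l and Gpd2 differed by at most 0.027 in size.

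The nutritional intervention was not associated with a called difference in any of the 9 genes. Between MCT + NI and MCT mice 0 of 9 genes were called in limma and 0 had an unadjusted p under 0.05, where 0% of all genes were called, the smallest adjusted p over all genes was 1, and 2.9% of all genes had an unadjusted p under 0.05. The difference was positive in 8 genes and negative in Fabp5, with a median of 0.0806 against -0.0046 over all genes. Groups did not overlap in Tcf15 and Fabp3, as in 6.08% of all genes, and in both the gap was narrow: the lowest MCT + NI mouse had 6.32 against 6.31 for the highest MCT mouse in Tcf15, and 12.45 against 12.43 in Fabp3. The intervals show what the data could not tell apart: for Meox2 -0.28 to 0.43, for Gpihbp1 -0.25 to 0.42, for Fabp5 -0.37 to 0.31 and for Aqp7 -0.14 to 0.49, but only -0.0735 to 0.15 for Lpl and -0.0658 to 0.14 for Fabp3.

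Against sham mice the MCT + NI mice had 3 of 9 genes called, all 3 higher, where 6.26% of all genes were called (4.52% higher and 1.75% lower). They were Meox2 (0.86, 1.81-fold, adjusted p = 0.013), Gpihbp1 (0.74, 1.67-fold, adjusted p = 0.021) and Fabp5 (0.63, 1.55-fold, adjusted p = 0.04). The comparison shares its sham mice with that of MCT mice, so the values stand side by side and are not separate support. Tcf15 differed by -0.23 (95% interval -0.43 to -0.025, adjusted p = 0.203) and also did not overlap with sham mice, so that 4 of 9 genes did not overlap, as in 21% of all genes. A call of Tcf15 in MCT and not in MCT + NI mice does not show a difference between them, and their own comparison gave an adjusted p of 1. Of the other genes, Aqp7 differed by -0.29 (adjusted p = 0.312), and Cd36 (-0.023), Fabp3 (0.037), Fabp4 (0.072) and Lpl (0.063) differed little. Meox2 kept its call without any single mouse except MCT + NI mouse 619 (adjusted p = 0.0607). Gpihbp1 kept it without any 1 MCT mouse or sham mouse 620, but not without MCT + NI mice 615 (0.0714), 617 (0.0562) or 619 (0.077) or sham mice 624 (0.0819) or 625 (0.0704). Fabp5 kept it only without sham mouse 620 (0.0476) or 625 (0.00934), with a highest adjusted p of 0.136 without MCT + NI mouse 619.

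**Figure D4:**
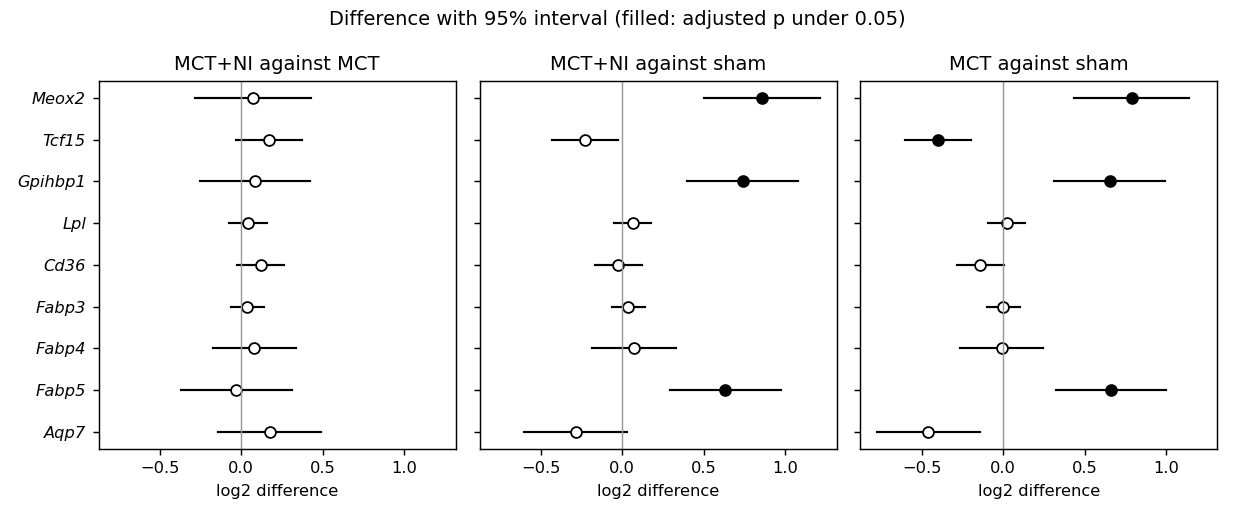
Log2 difference with its 95% interval from limma for the 9 genes, in MCT + NI against MCT, MCT + NI against sham and MCT against sham mice (3 mice per group); filled dots have an adjusted p under 0.05. Filled dots appear for Meox2, Gpihbp1 and Fabp5 in both comparisons with sham mice and for Tcf15 in MCT against sham mice, and none appears between the diets.

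Markers of several cell types also differed between MCT and sham mice. A bulk sample cannot tell fewer cells of a type from less RNA per cell. Of 14 endothelial markers 6 were higher in MCT mice, relative to sham, and 0 lower, among them Pecam1 (0.69, adjusted p = 0.00357), Cdh5 (0.74, adjusted p = 0.00186) and Icam2 (0.93, adjusted p = 0.000103), with a median of 0.42. Others in the list were below sham mice without passing the test, with no overlap in Tek, the angiopoietin receptor (-0.47, adjusted p = 0.0935), Ptprb (-0.17, adjusted p = 0.0718) and Tie1 (-0.072, adjusted p = 0.349). In MCT + NI mice, relative to sham, 9 were higher and Tek was lower (-0.62, adjusted p = 0.0348). Their mean lay 0.29 to 0.49 above the sham mean in MCT + NI mice, 0.31 to 0.42 above it in MCT mice, and between -0.0901 and 0.11 in sham mice. Set against this mean on the same array, Cd36 (-0.52), Lpl (-0.36), Fabp3 (-0.38), Fabp4 (-0.39), Tcf15 (-0.78) and Aqp7 (-0.84) were lower in all MCT than in all sham mice. The marker mean itself was higher in MCT mice, so a gene that differed little from sham mice comes out lower on this scale. The share of all genes that are lower on this scale was not computed, so these genes cannot be set against it. For Lpl, Fabp4 and Fabp3, the last a cardiomyocyte gene, the outcome follows from values given above and is no further support. Whole ventricle does not show which cells expressed Lpl, Cd36 or the other uptake genes, so this scale is not their level within endothelium. The same rise enlarges the differences of Cd36, Tcf15 and Aqp7. Meox2 (0.41), Fabp5 (0.28) and Gpihbp1 (0.27) overlapped with sham mice on that scale. The two-sided exact permutation p was 0.1 for each gene without overlap, the smallest that 3 against 3 mice can give. It was 0.2 for each of Meox2, Fabp5 and Gpihbp1. After adjustment over 30 comparisons on the same array, those of Meox2 minus Tcf15 included, these permutation p-values were 0.231 and 0.333.

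Endothelial genes did not move as a block. Of 12 markers of capillary endothelium, 5 of them uptake genes, 5 were higher and 4 lower in MCT mice, where 4.65% of all genes were called higher and 1.61% lower. Besides Tcf15 the lower ones were Timp4, a metalloproteinase inhibitor (-2.37, adjusted p = 0.00063), Car4, a carbonic anhydrase of the capillary surface (-2.02, adjusted p = 0.000464), and Rgcc (-0.52, adjusted p = 0.00574). Sparcl1 (0.59) and Aplnr (0.71) were higher with Cav1, Gpihbp1 and Meox2. Of 10 arterial markers 1 was called, of 10 venous and endocardial markers 0 (limma). Markers of smooth muscle and pericytes were higher in 5 of 10, of fibroblasts in 5 of 10 and of macrophages in 4 of 12 with 1 lower. The part of these cells in the differences of the uptake genes was not tested.

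The atrial transcripts were high in all sham mice, in MCT mouse 644 and in MCT + NI mouse 615. In MCT mouse 644 Meox2 had 8.28, Gpihbp1 8.09, Fabp5 7.97 and Tcf15 6.31, values outside the range of the sham mice. Without MCT mouse 644 and MCT + NI mouse 615 together, the difference between MCT and sham mice was 0.93 for Meox2 (adjusted p = 0.0136), 0.83 for Gpihbp1 (0.0138), 0.63 for Fabp5 (0.149) and -0.43 for Tcf15 (0.0834). With these mice left out, every remaining MCT and MCT + NI mouse was low and every sham mouse high in atrial transcripts, so that atrial level and treatment cannot be told apart in that fit. None of 10 adipocyte markers was called in limma, and Adipoq, which encodes adiponectin, was dim in all mice (3.19 to 4.27 in MCT + NI, 3.02 to 3.95 in MCT and 3.22 to 4.57 in sham mice). Sham mouse 624 had the lowest mean of the adipocyte markers among sham mice, -0.31 against 0.20 and 0.11 in mice 620 and 625 relative to the sham mean. It was also the lowest sham mouse in 7 of the 9 uptake genes, all but Meox2 and Fabp5, where 28.3% of all genes had their lowest sham value in this mouse. Whether fat on the sample contributed to this was not tested.

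Among 20 regulators around endothelial fatty acid uptake, 4 were higher in MCT mice, relative to sham, and 1 was lower. Apln, the ligand of the apelin receptor, had 10.42, 10.15 and 10.42 in MCT + NI mice 615, 617 and 619, 10.31, 10.44 and 9.90 in MCT mice 640, 641 and 644, and 6.28, 6.56 and 6.73 in sham mice 620, 624 and 625 (3.69, 12.9-fold, adjusted p = 7.08e-06). Its receptor gene Aplnr was higher by 0.71 (adjusted p = 0.0245). Meox1, the paralogue of Meox2, had 7.83, 7.52 and 7.77 in MCT + NI, 7.74, 7.68 and 7.56 in MCT and 5.50, 5.52 and 5.58 in sham mice, in the same order of mice (2.13, 4.37-fold, adjusted p = 7.08e-06). Both Meox genes were thus higher in mice given MCT. Of the genes for receptors of Vegfb, a growth factor linked to endothelial fatty acid transport in mice, Flt1 was lower (-0.71, adjusted p = 0.000822) and Nrp1 higher (0.35, adjusted p = 0.0154), while Vegfb differed by -0.0854 without passing (adjusted p = 0.218). Pparg, the receptor that induces Fabp4 and Gpihbp1 in other settings, differed by -0.0902 (adjusted p = 0.612). Of 16 genes of intracellular lipolysis and triglyceride synthesis, Mgll, the monoglyceride lipase, was higher (0.56, adjusted p = 0.0244) and 0 were lower, near the 6.26% of all genes called.

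**Figure D5:**
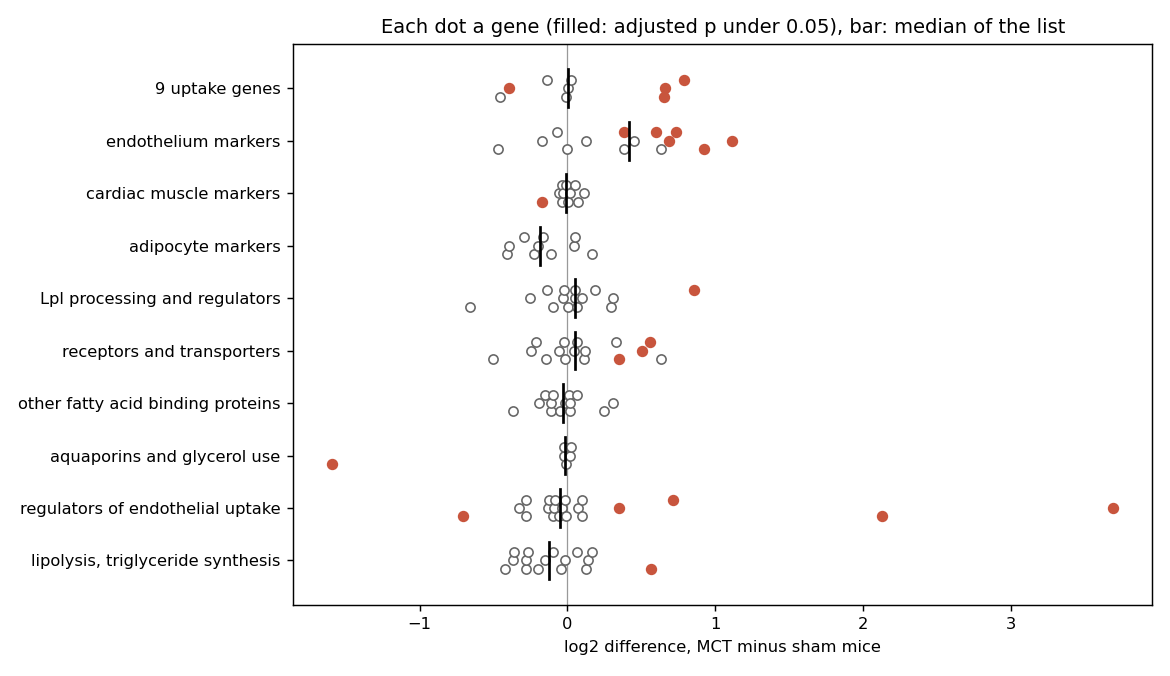
Log2 difference between MCT and sham mice for single genes (dots, filled at an adjusted p under 0.05 in limma), by gene list, with a bar at the median of each list. The 9 uptake genes spread from -0.46 to 0.79 around a median of 0.0012, the endothelial markers have a median of 0.42, and the largest rise shown is that of Apln (3.69).

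The genes whose profile over the 9 mice was closest to each called gene were found by the root mean square difference after centring on sham mice, among genes at or above the median level. They were Hlx, a homeobox factor, and Atp8b1 and BC028528 for Meox2 (0.0935 to 0.12), and Rgs5 and Higd1b, known from pericytes, and Myct1 for Gpihbp1 (0.0689 to 0.11). For Fabp5 they were Prcp, Unc5b, a netrin receptor, and Piezo1, a mechanically gated channel (0.11 to 0.14). Tcf15 was nearest to Fmo1, Fam126a and Kyat1 (0.0508 to 0.0753). The sign of the difference between MCT and sham mice was that of the partner in all 12, which the choice by likeness fixes, and Kyat1 did not pass the test (-0.30, adjusted p = 0.0706).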

How the data were processed

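Right ventricular RNA of 9 mice was hybridised to Affymetrix mouse gene 1.1 ST arrays, 100 ng per mouse. The authors processed the scans by robust multi-array analysis (RMA; version not given) and deposited log2 values, which were used as deposited. RMA makes the distributions of the arrays alike, so differences are relative to the array as a whole, and it compresses differences of dim probe sets. The deposited table has 35556 rows numbered as by the manufacturer, although according to the methods the probes were regrouped by Entrez gene. The labels and the methods also differ in the RNA isolation (RNeasy Micro or trizol) and in the lead-in of the diets, 2 weeks in the labels.

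Of the rows 21218 had 1 gene in the platform annotation, 1881 had several and 12457 had none, and the last 2 kinds were left out. The brightest probe set represented each of 1386 genes with several, which gave 18820 genes, of which 12042 had 1 value in at least 2 mice. A linear model with a mean for each group was fitted to all 9 arrays in limma 3.58.1 (R 4.3.3) with an intensity trend, and its two-sided p-values were adjusted by Benjamini-Hochberg over all genes. The fit was tested on simulated data with independent normal noise for each gene and set shifts in MCT mice. Such data lack the ties and the correlation between genes of real arrays, so the fit was not tested under these. Differences on the same array, of a gene from the mean of the endothelial markers and of Meox2 from Tcf15, were compared by exact permutation. The alternatives were the mean of probe sets, all rows, genes at or above the median level, no trend, only both groups compared, quantile normalization, array weights, each mouse left out, and MCT mouse 644 with MCT + NI mouse 615 left out. The other probe sets of Fabp3 and Fabp5 were added after the data were seen. The 9 genes and the lists around them (208 symbols, 197 measured) were chosen with earlier results of these data known. Named from each list were up to 4 genes with the smallest p between MCT and sham mice, and others chosen after their values were seen. Coordinates and promoter windows are those of RefSeq (GRCm38.p6).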

Additional observations from a re-analysis of the deposited data

How the results depend on the processing

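Between MCT and sham mice, 4 of the 9 genes were called. The number was 0 with all rows tested, 0 with only both groups compared, 2 without MCT mouse 644 and MCT + NI mouse 615 together, and 0 to 3 with each mouse left out. It was 0 without MCT mouse 640 or 641, 1 without sham mouse 625 or MCT + NI mouse 615, and 2 when MCT mouse 644, MCT + NI mouse 617 or MCT + NI mouse 619 was left out. Over all genes 676 to 1196 were called with each mouse left out. Between MCT + NI and sham mice, 3 of 9 were called, against 1 with all rows tested and 0 to 3 with each mouse left out (0 without MCT + NI mouse 619, 1 without 615 or 617 or without sham mouse 624), and over all genes 720 without both named mice and 625 to 1183 with each left out. No paired analysis was possible because the numbers of the mice are not shared between groups.

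Signs changed only in genes that were not called. Between MCT and sham mice Fabp3 was at -0.0067 with the mean of probe sets, -0.0078 with quantile normalization, -0.0146 with the other probe set, -0.0003 without both named mice and -0.0569 to 0.0322 with each mouse left out. Fabp4 was at 0.0074 with quantile normalization, 0.0119 with array weights, 0.0601 without both mice and -0.1481 to 0.1027 with each left out, and Lpl at -0.0202 to 0.0718. Between MCT + NI and MCT mice, leaving each out gave -0.0965 to 0.0056 for Fabp5, -0.0896 to 0.2262 for Gpihbp1, -0.0086 to 0.0834 for Lpl and -0.0708 to 0.1767 for Meox2, and without both mice Gpihbp1 was at -0.0805 and Lpl at -0.0275. Between MCT + NI and sham mice the ranges were -0.0813 to 0.024 for Cd36, -0.0216 to 0.0675 for Fabp3 and -0.0675 to 0.1833 for Fabp4. The cause of these changes was not tested.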
